A study of Arabidopsis thaliana with 12 samples.

Results

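The WRKY transcription factor family of Arabidopsis thaliana was followed in whole seedlings treated with cycloheximide (CHX). The members were taken from a list of 58 WRKY gene identifiers, and a gene was kept where its identifier was a row of the deposited count table, which left 45 members among 12905 genes. WRKY12, WRKY13, WRKY16, WRKY21, WRKY23, WRKY27, WRKY39, WRKY42, WRKY43, WRKY44, WRKY60, WRKY71 and WRKY75 made up the other 13 and were not analysed here. The table holds genes that reached a minimum of 5 reads in a library, so a member could also enter it only through the doses at which it was high. A set of 36 members had at least 6 counts in a 0 µM library and would have been listed with no rise at all.

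The seedlings were wild type of the Col-0 accession, 2 weeks old, and were kept for 2 h in light of 30 µE with CHX at 0, 1, 10 or 100 µM. All groups shared the accession, age, light and time, and differed in CHX alone. The study's own text ties this record to an experiment on the flu mutant and another record to CHX, but the title, the design and the labels of all 12 samples name CHX doses and wild type, and these were followed. Each dose had 3 replicates, which gave 12 libraries of 3′ transcript ends made by bulk MARS-seq. The labels do not say whether the replicates were separate cultures, so the p-values measure the spread between these samples, which may be technical. Levels are given in CPM, library-scaled counts for which the TMM method of edgeR set the scaling factors. Changes are log2 ratios ± SE from edgeR's quasi-likelihood test, and each adjusted p is that test's, with Benjamini-Hochberg adjustment over the 12905 genes. A gene was called higher or lower where its adjusted p was under 0.05 and its change at least 2-fold. The 3 comparisons with 0 µM share the same 0 µM libraries.

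WRKY proteins are plant transcription factors named after a conserved stretch of amino acids that lies next to a zinc finger. The domain reads the W-box, a short DNA element that is frequent in the promoters of defence and senescence genes and of many WRKY genes themselves. Group I proteins carry a pair of domains, group II proteins carry a single one and are divided into IIa to IIe, and group III proteins have a single domain with another type of zinc finger. Several members respond within minutes to microbial elicitors, wounding and reactive oxygen, downstream of mitogen-activated protein kinases (MAPK), and some of them repress the genes of others. CHX stops cytosolic ribosomes, so that transcripts can change without new protein from the cytosol.

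Stretches of the domain-coding sequence are shown first because they code for the stretch that names the family and because its sixth codon and number of copies vary between members. The 7 codons of the name-giving stretch span 21 bases, and in RefSeq's annotation of TAIR10.1 the sixth codon, in capitals, read glutamine in WRKY33, WRKY40 and WRKY53 and lysine in WRKY50 and WRKY51. All sequences are written 5′ to 3′ on the strand named, and all positions are those of TAIR10.1.
WRKY33 first copy, chr2:16109358-16109378, plus strand: tggagaaagtacggaCAAaaa
WRKY33 second copy, chr2:16109982-16110002, plus strand: tggagaaaatacggcCAGaaa
WRKY40, chr1:30384789-30384809, plus strand: tggaggaaatatggaCAGaaa
WRKY53, chr4:12393134-12393154, minus strand: tggagaaaatatggtCAAaaa
WRKY50, chr5:9147579-9147599, minus strand: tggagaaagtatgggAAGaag
WRKY51, chr5:25908864-25908884, plus strand: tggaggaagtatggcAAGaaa
The stretch was found in a pair of copies in 10 of the 11 measured group I members. WRKY19, the remaining member of group I, had 1 copy, as had every member of the other groups.

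Promoter sequences are shown for 3 members that rose at 10 and 100 µM and for WRKY65, which was lower at these doses. The window is the 300 bases before the annotated start of the gene, and capitals mark the W-box, searched as TTGACC or TTGACT on both strands, so that GGTCAA and AGTCAA are the same elements read on the other strand.
WRKY30, chr5:8154711-8155010, minus strand: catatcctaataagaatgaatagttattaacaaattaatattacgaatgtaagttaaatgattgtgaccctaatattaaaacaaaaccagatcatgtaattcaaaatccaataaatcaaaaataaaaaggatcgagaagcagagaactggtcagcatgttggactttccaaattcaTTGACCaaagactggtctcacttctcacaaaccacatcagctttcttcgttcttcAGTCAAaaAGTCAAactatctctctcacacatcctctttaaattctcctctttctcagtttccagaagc
WRKY33, chr2:16107935-16108234, plus strand: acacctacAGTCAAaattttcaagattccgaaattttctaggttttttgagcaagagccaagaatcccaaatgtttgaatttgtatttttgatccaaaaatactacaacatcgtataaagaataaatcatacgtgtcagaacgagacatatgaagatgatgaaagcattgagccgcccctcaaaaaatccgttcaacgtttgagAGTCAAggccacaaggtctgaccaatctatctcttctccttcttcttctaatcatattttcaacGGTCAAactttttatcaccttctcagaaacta
WRKY53, chr4:12393983-12394282, minus strand: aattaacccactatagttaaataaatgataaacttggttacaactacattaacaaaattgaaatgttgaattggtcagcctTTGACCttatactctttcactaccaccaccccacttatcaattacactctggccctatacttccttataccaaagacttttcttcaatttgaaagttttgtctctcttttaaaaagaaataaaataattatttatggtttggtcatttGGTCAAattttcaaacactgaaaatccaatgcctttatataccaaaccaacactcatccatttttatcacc
WRKY65, chr1:10236037-10236336, plus strand: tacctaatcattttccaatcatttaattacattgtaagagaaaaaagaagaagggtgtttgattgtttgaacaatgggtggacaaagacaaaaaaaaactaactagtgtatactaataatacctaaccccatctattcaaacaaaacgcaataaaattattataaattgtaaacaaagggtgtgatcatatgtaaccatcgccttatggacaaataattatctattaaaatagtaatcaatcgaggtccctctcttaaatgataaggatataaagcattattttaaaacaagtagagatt
WRKY30 held 3 W-boxes, which began 124, 69 and 61 bases before the start of the gene, and WRKY33 held 3, at 292, 96 and 32 bases. WRKY53 held 2, at 219 and 71 bases, and no W-box was present in the window of WRKY65. WRKY40 had no W-box in its window but 2 copies of the shorter core TTGAC, which is also part of every W-box. WRKY6, WRKY18, WRKY38, WRKY46, WRKY54 and WRKY70, among others that rose at 10 and 100 µM, had no W-box there either. WRKY45, whose 10 and 100 µM libraries lay below all untreated ones, had 2, at 189 and 15 bases.

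Among the promoters of the 45 members, 21 (46.7%) held at least 1 W-box in this window, against 33.1% of the promoters of table genes and 32.3% of 27444 nuclear protein-coding genes. The share was 56.5% (13 of 23) for the members of the stress-induced class described below and 36.4% (8 of 22) for the other members. It was 43.1% for all table genes called higher at 100 µM. The core TTGAC was in 21 of 23 stress-induced members (91.3%) and in 9 of 22 other members (40.9%). It was in 51.6% of table genes and in 60.4% of table genes called higher at 100 µM. In the 1000 bases before the start the classes lay closer, with a W-box in 91.3% of stress-induced and 81.8% of other members. The shares there were 68.2% for table genes and 76.2% for those called higher at 100 µM. The classes were drawn up with results of these data known, so their contrast is no independent support for them. These shares are descriptions without a test, and a match does not show that a factor binds.

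WRKY transcripts rose broadly with CHX. At 100 µM 29 of 45 members were called higher and 2 lower than at 0 µM, where 23.8% of all genes were called higher and 14.9% lower. At 10 µM 30 members were called higher and 1 lower, against 22.4% and 12.1% of all genes. At 1 µM 26 members were called higher, against 13.5% of all genes, and no member was called lower by edgeR, by DESeq2 or at an unadjusted p under 0.05. The percentage called lower among all genes was 3.12% there. The median log2 change of the members was 2.78 at 100 µM, 2.81 at 10 µM and 1.88 at 1 µM, while that of all genes was 0.02 at each dose. With members that had no count at 0 µM set to their lower bound, the medians were 2.49 at 100 µM and 1.65 at 1 µM. Among the 36 members with at least 6 counts in a 0 µM library, 22 were called higher and 2 lower at 100 µM, beside 19.8% and 17.9% of all genes that met the same condition. The median log2 change of these 36 was 2.19 at 100 µM, 1.55 at 10 µM and 1.16 at 1 µM, and that of all genes meeting the condition was −0.19, −0.18 and −0.08. In the joint test over doses 39 of 45 members differed between doses, against 52.9% of all genes.

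**Figure D1:**
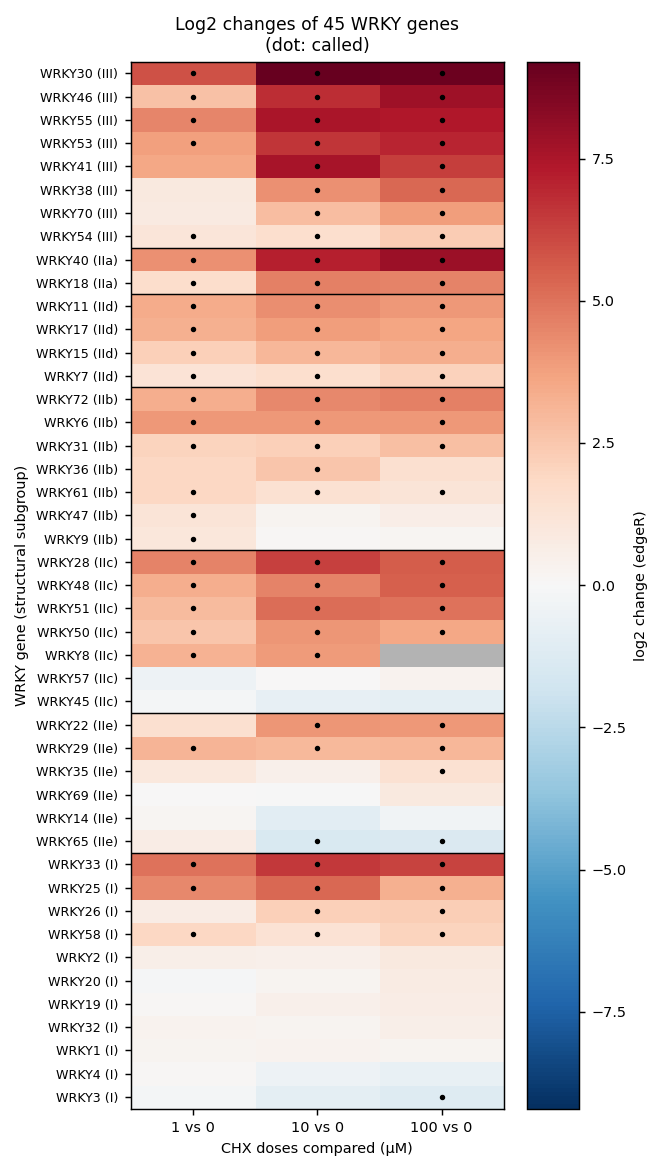
Log2 changes fitted by edgeR for the 45 members at 1, 10 and 100 µM against 0 µM CHX, ordered by structural subgroup, with red for higher, blue for lower and a dot where the change was called. All 8 members of group III, all 4 of group IId and 4 of 11 members of group I were called higher at 100 µM, against 23.8% of all genes. WRKY30, WRKY41 and WRKY46 of group III and WRKY25 of group I had 0 or 1 count over the 0 µM libraries. WRKY28 and WRKY30 had 0 counts at 0 µM, so their colours are fitted values and no bounds. The grey cell is WRKY8 at 100 µM, too low for a fold.

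The family was divided by background knowledge of each gene, with results of these data already known. The stress-induced class holds 25 members taken as induced by pathogens or stress, of which 23 were measured. Of the 33 others 22 were measured. Of the stress-induced members 22 were called higher at 100 µM, 23 at 10 µM and 19 at 1 µM, and none was called lower at these doses by edgeR, by DESeq2 or at an unadjusted p under 0.05. Of the other members 7 (31.8%) were called higher at each of the 3 doses, 2 were called lower at 100 µM and 1 at 10 µM. Of all genes 23.8%, 22.4% and 13.5% were called higher at 100, 10 and 1 µM, and 14.9%, 12.1% and 3.12% lower. The median log2 change at 100 µM was 4.53 (3.98 with members at their bound) for stress-induced and 0.72 for other members. At 10 µM the medians were 4.58 (4.25 with bounds) for the stress-induced and 0.31 for the other members, and at 1 µM 3.26 (3.09 with bounds) and 0.59. Members are not replicates and the classes were drawn up with results of these data known, so the contrast carries no test. The other class also holds members with roles in defence or stress, among them WRKY3, WRKY26, WRKY57 and WRKY72. In the members with at least 6 counts in a 0 µM library, 15 of 15 stress-induced and 7 of 21 other members were called higher at 100 µM. Of all genes that met the same condition 19.8% were. With scaling by total counts alone 4 other members were called higher at 100 µM and 5 lower, and with scaling to reference genes 13 were called higher and 0 lower. Of the 12905 genes 1846 were called higher and 5634 lower with total counts, and 4133 and 810 with reference genes.

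**Figure D2:**
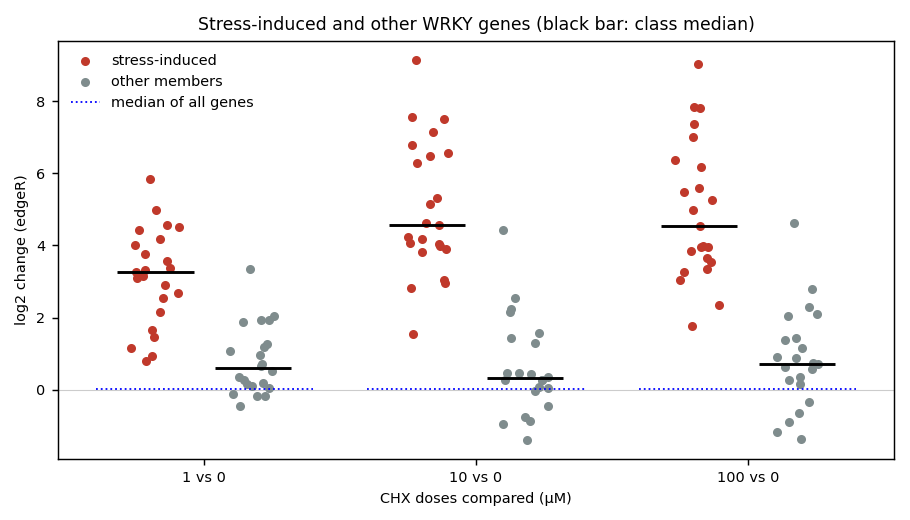
Log2 changes (edgeR) of the 23 stress-induced members (red) and the 22 other members (grey) at 1, 10 and 100 µM against 0 µM CHX, each point 1 gene, with black bars for the class medians and a dotted line for the median of all genes. The stress-induced medians were 3.26, 4.58 and 4.53, and those of the other members were 0.59, 0.31 and 0.72, with an all-gene median of 0.02 at each dose.

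The stress-induced members summed to 633.3 ± 156 CPM without CHX, and to 6762 ± 1440, 19090 ± 2570 and 21980 ± 1840 CPM with 1, 10 and 100 µM (SD, n = 3 each). Their share of all deposited counts was 0.0928% ± 0.0184 without CHX, and 0.781% ± 0.132, 1.56% ± 0.179 and 1.57% ± 0.0551 with 1, 10 and 100 µM (SD, n = 3 each). The other members summed to 603.8 ± 88.2 CPM without CHX, and to 932.5 ± 133, 847.8 ± 106 and 1025 ± 78.1 CPM with 1, 10 and 100 µM (SD, n = 3 each). Without CHX the sums of the classes differed by less than their spread, and the gain of the family lay mostly in the stress-induced class.

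WRKY33 (AT2G38470, chr2:16108235-16110766), a group I factor required for resistance to necrotrophic fungi and for camalexin synthesis, was among the members that changed most. It had 59.1, 63.9 and 80.5 CPM at 0 µM, 1773, 1965 and 2681 CPM at 1 µM, 6506, 4828 and 6744 CPM at 10 µM, and 4312, 5080 and 5464 CPM at 100 µM. The lowest treated library was thus far above every untreated one. Its log2 change was 4.98 ± 0.24 at 1 µM, 6.47 ± 0.25 at 10 µM and 6.19 ± 0.25 at 100 µM (edgeR adjusted p = 6.41e-13, 9.83e-15 and 1.22e-14). Between 10 and 1 µM it rose by a further 1.49 ± 0.20 (edgeR adjusted p = 8.05e-06), and the difference of −0.28 ± 0.20 between 100 and 10 µM was not called (edgeR adjusted p = 0.447).

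WRKY40 (AT1G80840, chr1:30383561-30385499) and WRKY18 (AT4G31800, chr4:15382777-15385100) are the measured members of group IIa, repressors that act together in basal defence and abscisic acid signalling. WRKY40 had 29.2, 21.3 and 43.8 CPM at 0 µM, 528.9, 556.3 and 645.0 CPM at 1 µM, 4859, 3836 and 4952 CPM at 10 µM, and 6786, 7147 and 8038 CPM at 100 µM. Each dose stood apart from the one below it in all libraries. The log2 change of WRKY40 was 7.85 ± 0.28 at 100 µM (edgeR adjusted p = 1.81e-15), and its further difference of 0.69 ± 0.20 between 100 and 10 µM stayed under 2-fold (edgeR adjusted p = 0.0359).

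WRKY18 had 21.6, 20.1 and 11.2 CPM at 0 µM, 48.4, 49.3 and 68.9 CPM at 1 µM, 592.0, 290.2 and 438.5 CPM at 10 µM, and 861.5, 240.3 and 135.7 CPM at 100 µM. The 100 µM libraries of WRKY18 were spread widely, with replicate 1 highest, but all lay above the untreated ones. Its log2 change was 4.53 ± 0.51 at 100 µM (edgeR adjusted p = 1.8e-07), and it was 3.41 without 100 µM replicate 1. At 1 µM the change was 1.65 ± 0.50 (edgeR adjusted p = 0.0182), and this call was lost without 0 µM replicate 3 (1.44, edgeR adjusted p = 0.0713) or 1 µM replicate 3 (1.48, edgeR adjusted p = 0.0658), and with scaling by total counts or reference genes.

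**Figure D3:**
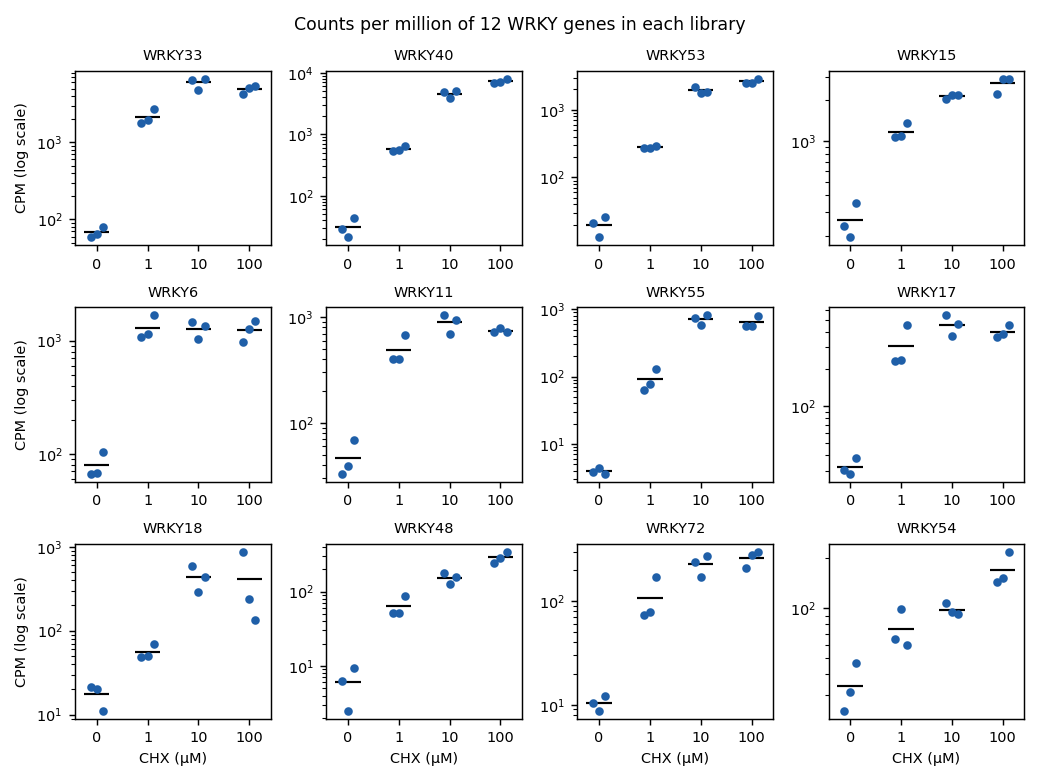
CPM of 12 members in each of the 12 libraries at 0, 1, 10 and 100 µM CHX, on a log axis whose range differs between panels, with points for libraries and bars for means. In WRKY33 the untreated libraries lay between 59.1 and 80.5 CPM and those at 10 µM between 4828 and 6744 CPM, and the spread at 100 µM was wide in WRKY18 (135.7 to 861.5 CPM).

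All 8 group III genes were measured and all were called higher at both 10 and 100 µM, against 22.4% and 23.8% of all genes. Of these, WRKY30, WRKY41 and WRKY46 had 0 or 1 count over the 0 µM libraries and entered the table only through treated libraries. WRKY38, WRKY53, WRKY54, WRKY55 and WRKY70 had at least 6 counts in a 0 µM library. Of all genes meeting that condition 17.9% were called higher at 10 µM and 19.8% at 100 µM. The median log2 change of the group was 6.68 at 100 µM (6.15 with bounds), 6.68 at 10 µM (6.35 with bounds) and 3.12 at 1 µM (2.73 with bounds). Between 10 and 1 µM 7 of the 8 rose again, with a median of 3.11, where 12.2% of all genes were called higher. Group III holds regulators of senescence and of salicylic acid responses.

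WRKY53 (AT4G23810, chr4:12392370-12393982), which promotes leaf senescence, had 21.3, 13.2 and 25.9 CPM at 0 µM, 270.5, 276.3 and 292.9 CPM at 1 µM, 2179, 1766 and 1861 CPM at 10 µM, and 2507, 2526 and 2900 CPM at 100 µM. No libraries of different doses overlapped. Its log2 change at 100 µM was 7.01 ± 0.25 (edgeR adjusted p = 1.81e-15). The gene WRKY55 (AT2G40740, chr2:16997078-16999499), a senescence factor of the same group, had 3.81, 4.39 and 3.58 CPM at 0 µM, 63.4, 77.7 and 131.1 CPM at 1 µM, 743.5, 585.7 and 811.7 CPM at 10 µM, and 572.5, 569.2 and 796.6 CPM at 100 µM. Its change at 100 µM was 7.36 ± 0.33 (edgeR adjusted p = 5.51e-14), with the 100 and 10 µM libraries overlapping.

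WRKY54 (AT2G40750, chr2:17000419-17002528), which restrains senescence together with WRKY70 (AT3G56400), changed least within group III at 10 and 100 µM. It had 24.1, 31.4 and 47.0 CPM at 0 µM, 65.5, 99.0 and 59.9 CPM at 1 µM, 108.1, 94.8 and 91.9 CPM at 10 µM, and 143.7, 151.6 and 218.2 CPM at 100 µM. Every treated library lay above every untreated one, and the log2 change was 2.33 ± 0.25 at 100 µM (edgeR adjusted p = 7.66e-08). At 1 µM it was 1.14 ± 0.25 (edgeR adjusted p = 0.00136), and it fell under 2-fold without 0 µM replicate 1 (0.95) or 1 µM replicate 2 (0.92), and with scaling by total counts (0.81) or reference genes (0.83). With total counts it was also under 2-fold at 10 µM (0.69). WRKY54 lies next to WRKY55 on chromosome 2.

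WRKY30 (AT5G24110), WRKY46 (AT2G46400) and WRKY41 (AT4G11070) were at or near the limit of detection without CHX. WRKY30 had 0 counts in all 3 untreated libraries, where 3 counts over the group correspond to 0.43 CPM, and was at least 61.0-fold higher at 100 µM, at least 70.5-fold at 10 µM and at least 6.94-fold at 1 µM. WRKY46, which acts in drought and salicylic acid responses, had 1 count over the 0 µM libraries and 220 at 100 µM, a ratio of 310 with a 95% counting interval of 55.0 to 12300. That single count was in 0 µM replicate 3, and without this library WRKY46 was at least 70.2-fold higher at 100 µM. Its call at 1 µM was lost with DESeq2, with scaling by total counts or reference genes, and without 0 µM replicate 1 or 2 or 1 µM replicate 2 or 3. WRKY41 had 317 counts at 10 µM and 1 at 0 µM (ratio 266, 47.4 to 10500), and 73 counts at 100 µM (ratio 103, 17.9 to 4120). Its 100 µM libraries stood at 39.7, 6.05 and 6.43 CPM, of which replicate 1 was far above the others, and without 0 µM replicate 3 it was at least 23.3-fold higher at 100 µM and at least 60.3-fold at 10 µM. Intervals and bounds cover counting error only.

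WRKY38 (AT5G22570) and WRKY70 started from a detectable level and were called only at the higher doses. WRKY38, a negative regulator of basal defence, averaged 2.64 CPM at 0 µM and 4.72 at 1 µM, and its log2 change was 4.18 ± 0.44 at 10 µM and 5.26 ± 0.43 at 100 µM (edgeR adjusted p = 6.1e-08 and 9.77e-10). Without 0 µM replicate 3 these were 4.93 and 5.97. For WRKY70, which links salicylic and jasmonic acid signalling, the change was 0.80 ± 0.44 at 1 µM, 2.81 ± 0.39 at 10 µM and 3.85 ± 0.38 at 100 µM (edgeR adjusted p = 0.204, 3.46e-06 and 2.55e-08). WRKY38, WRKY70 and WRKY46 were the only members called higher at 100 than at 10 µM, by 1.08 ± 0.30, 1.04 ± 0.30 and 1.02 ± 0.23 (edgeR adjusted p = 0.0249, 0.0338 and 0.00778), where 2.19% of all genes were called higher and 2.48% lower. All 3 changes lay just past 2-fold, and this count ranged from 0 to 3 when single libraries were left out, with 0 without 10 µM replicate 2.

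On the log2 scale, group IId reached most of its change at the lowest dose. So did the whole family, with medians of 1.88 at 1 µM and 2.78 at 100 µM. WRKY11 (AT4G31550, chr4:15289788-15291934), WRKY17 (AT2G24570, chr2:10437353-10439469) and WRKY7 (AT4G24240, chr4:12571538-12573783) dampen resistance to bacteria, and WRKY15 (AT2G23320, chr2:9924886-9926372) acts in growth and osmotic stress. The group's median log2 change was 2.71 at 1 µM, 3.43 at 10 µM and 3.49 at 100 µM, and between 10 and 1 µM the changes of its 4 members lay between 0.32 and 0.87, all under 2-fold. WRKY15 had 238.3, 196.2 and 351.1 CPM at 0 µM, 1066, 1094 and 1370 CPM at 1 µM, 2051, 2185 and 2198 CPM at 10 µM, and 2221, 2897 and 2887 CPM at 100 µM. It rose by 2.17 ± 0.21 at 1 µM and by 3.35 ± 0.22 at 100 µM (edgeR adjusted p = 3.99e-08 and 2.72e-11), and its doses did not overlap. In CPM, WRKY15 and WRKY7 gained more between 1 and 100 µM than between 0 and 1 µM.

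WRKY11 had 33.0, 39.5 and 68.9 CPM at 0 µM, 399.3, 405.3 and 673.8 CPM at 1 µM, 1039, 694.6 and 946.0 CPM at 10 µM, and 724.2, 784.8 and 724.1 CPM at 100 µM. WRKY17 had 30.2, 28.2 and 38.0 CPM at 0 µM, 234.5, 236.3 and 455.2 CPM at 1 µM, 545.6, 368.4 and 464.2 CPM at 10 µM, and 366.1, 382.3 and 457.4 CPM at 100 µM. Both were highest on average at 10 µM, and in both the 100 and 10 µM libraries overlapped. Their log2 changes at 100 µM were 3.98 ± 0.28 and 3.64 ± 0.26 (edgeR adjusted p = 7.02e-11 and 1.35e-10).

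WRKY7, which was not among the stress-induced class, had 55.3, 43.3 and 61.7 CPM at 0 µM, 118.5, 120.3 and 146.3 CPM at 1 µM, 185.3, 100.4 and 194.8 CPM at 10 µM, and 205.7, 229.7 and 251.5 CPM at 100 µM. All treated libraries lay above the untreated ones. Its log2 change was 1.26 ± 0.22 at 1 µM and 2.09 ± 0.23 at 100 µM (edgeR adjusted p = 0.000171 and 9.11e-08), and at 1 µM it fell under 2-fold with scaling by total counts (0.91) or reference genes (0.95), as it did at 10 µM with total counts (0.71).

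In group IIb, WRKY6 (AT1G62300, chr1:23016569-23019494), which represses phosphate transport genes and acts in senescence, was as high at the lowest dose as at the highest. It had 66.7, 68.3 and 103.8 CPM at 0 µM, 1072, 1144 and 1668 CPM at 1 µM, 1457, 1025 and 1335 CPM at 10 µM, and 980.6, 1252 and 1493 CPM at 100 µM. The libraries of all 3 treated doses overlapped and stood above the untreated ones. Its log2 change was 4.02 ± 0.25 at 1 µM, 4.0 ± 0.25 at 10 µM and 3.96 ± 0.25 at 100 µM (edgeR adjusted p = 3.86e-11, 1.41e-11 and 1.47e-11), and −0.02 ± 0.22 between 10 and 1 µM (edgeR adjusted p = 0.947).

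WRKY72 (AT5G15130, chr5:4904290-4907094), a factor of basal immunity, showed the strongest rise outside the stress-induced class. It had 10.5, 8.78 and 12.1 CPM at 0 µM, 73.0, 79.7 and 173.5 CPM at 1 µM, 239.0, 172.0 and 272.9 CPM at 10 µM, and 208.8, 281.6 and 298.9 CPM at 100 µM. The untreated libraries lay far below the others, and the log2 change was 3.36 ± 0.32 at 1 µM and 4.64 ± 0.33 at 100 µM (edgeR adjusted p = 3.58e-08 and 9.49e-11). WRKY31 (AT4G22070), its relative in group IIb, was also called at all 3 doses, with a change of 2.78 ± 0.35 at 100 µM (edgeR adjusted p = 9.15e-07).

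WRKY47 (AT4G01720, chr4:744804-748554) was called only at 1 µM. It had 35.6, 44.5 and 59.9 CPM at 0 µM, 80.8, 99.3 and 135.0 CPM at 1 µM, 64.0, 46.5 and 55.6 CPM at 10 µM, and 58.0, 80.6 and 77.2 CPM at 100 µM. Its libraries at 1 µM stood above those at 0 µM, while those at 10 µM overlapped with them. The log2 change was 1.17 ± 0.22 at 1 µM (edgeR adjusted p = 0.000397), and it was under 2-fold without 1 µM replicate 3 (0.97) and with scaling by total counts (0.83) or reference genes (0.89). With reference genes WRKY47 was instead called at 100 µM (1.18). WRKY9 (AT1G68150) showed the same pattern at a lower level, with 1.06 ± 0.30 at 1 µM (edgeR adjusted p = 0.0117), a call lost without 0 µM replicate 1 (0.99, edgeR adjusted p = 0.0552) or 1 µM replicate 3 (0.75, edgeR adjusted p = 0.106) and with both of these scalings.

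The remaining members of group IIb were of low abundance. WRKY61 (AT1G18860) was called at all doses, with 1.93 ± 0.39 at 1 µM, 1.42 ± 0.40 at 10 µM and 1.16 ± 0.44 at 100 µM (edgeR adjusted p = 0.000679, 0.00634 and 0.0337). The call at 100 µM was lost with DESeq2 and when replicate 1 or 2 of 0 µM (1.01 each) or of 100 µM (0.96 and 1.19) was left out. With scaling by total counts the calls at 10 µM (0.57) and 100 µM (0.12) were both lost. The differences of WRKY61 between treated doses were not called. WRKY36 (AT1G69810) had 3 counts over the 0 µM libraries, all in replicate 1, and 22 at 10 µM, a ratio of 6.16 (1.85 to 32.1), and was called at 10 µM alone. Without 0 µM replicate 1 it was at least 3.38-fold higher at 10 µM and at least 1.55-fold at 100 µM, and the call at 10 µM was lost without replicate 2 or 3 of 0 µM (edgeR adjusted p = 0.0501 and 0.0652) or replicate 1 of 10 µM (edgeR adjusted p = 0.0805).

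**Figure D4:**
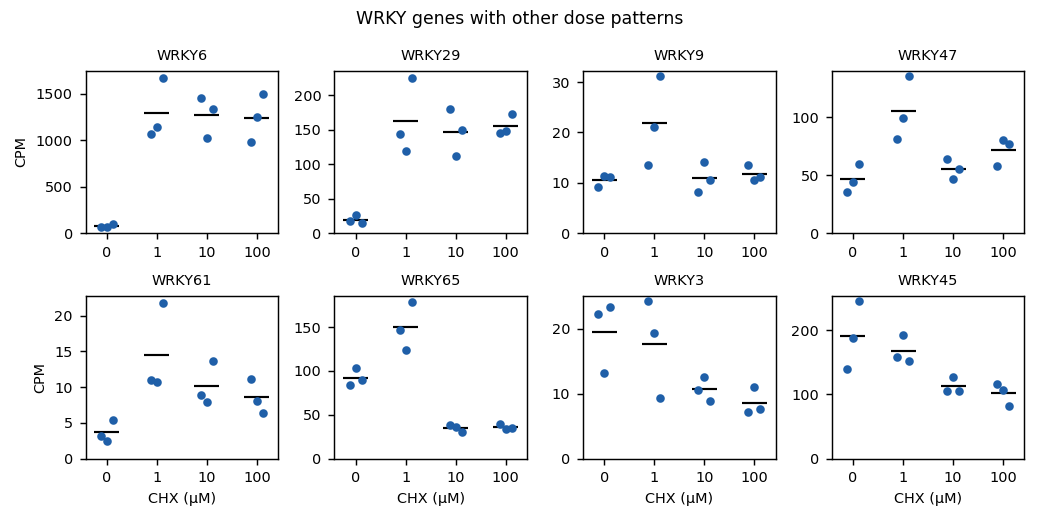
CPM in each library at 0, 1, 10 and 100 µM CHX for 8 members whose levels did not simply rise with dose, on linear axes that start at 0, with points for libraries and bars for means. WRKY6 and WRKY29 were already at their full level at 1 µM, WRKY9 and WRKY47 were called at 1 µM alone, and WRKY65 was at 38.9 CPM or below in all 10 and 100 µM libraries.

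Group IIc was divided. WRKY48 (AT5G49520, chr5:20090648-20093346), a repressor of basal resistance to bacteria, had 6.36, 2.51 and 9.39 CPM at 0 µM, 51.2, 52.0 and 88.3 CPM at 1 µM, 177.3, 125.8 and 156.3 CPM at 10 µM, and 244.6, 286.1 and 339.2 CPM at 100 µM. The doses did not overlap, and the log2 change was 5.50 ± 0.31 at 100 µM (edgeR adjusted p = 2.74e-12). WRKY50 (AT5G26170) and WRKY51 (AT5G64810), the pair with a lysine codon in the stretch shown above, act in the repression of jasmonic acid responses by salicylic acid. WRKY51 changed by 2.91 ± 0.66 at 1 µM, 5.14 ± 0.54 at 10 µM and 4.99 ± 0.56 at 100 µM (edgeR adjusted p = 0.00195, 6.63e-08 and 1.62e-07). WRKY50 changed by 2.55 ± 0.47, 4.04 ± 0.43 and 3.56 ± 0.46 at these doses (edgeR adjusted p = 0.000283, 7.42e-08 and 1.09e-06).

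WRKY28 (AT4G18170), an activator of salicylic acid synthesis, had 0 counts in the untreated libraries and was at least 2.78-fold higher at 1 µM, at least 9.24-fold at 10 µM and at least 5.63-fold at 100 µM. Its 10 counts at 1 µM were few, and the call there was lost when any 1 of the 0 µM libraries or 1 µM replicate 3 was left out. WRKY8 (AT5G46350), which modulates responses to bacteria and viruses, had 1 count without CHX and 14, 24 and 3 counts with 1, 10 and 100 µM, so that no fold is given at 100 µM. The ratio for WRKY8 was 11.7 at 1 µM (1.77 to 493) and 20.2 at 10 µM (3.29 to 829), and without 0 µM replicate 1, which held the count, it was at least 2.13-fold higher at 1 µM and at least 3.69-fold at 10 µM. Its call at 1 µM was lost without any 1 of 0 µM replicates 2 and 3 and 1 µM replicate 3 (edgeR adjusted p = 0.0726, 0.0892 and 0.0985) and with reference genes (edgeR adjusted p = 0.052).

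The other 2 members of group IIc were not called at any dose. WRKY45 (AT3G01970, chr3:325952-327412), which activates phosphate uptake, had 140.1, 188.1 and 245.1 CPM at 0 µM, 158.7, 192.7 and 151.7 CPM at 1 µM, 105.1, 127.1 and 104.7 CPM at 10 µM, and 116.7, 106.3 and 81.3 CPM at 100 µM. Its 10 and 100 µM libraries lay below all untreated ones, but the log2 difference of −0.91 ± 0.21 at 100 µM stayed under 2-fold (edgeR adjusted p = 0.000849). It passed 2-fold without 0 µM replicate 1 (−1.10) or 100 µM replicate 1 (−1.02) and with scaling by total counts (−1.94), while with reference genes it was −0.36 (edgeR adjusted p = 0.142). WRKY57 (AT1G69310), a factor of drought tolerance, differed by 0.34 ± 0.29 at 100 µM (edgeR adjusted p = 0.348), and by −0.70 with scaling by total counts.

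WRKY29 (AT4G23550, chr4:12291632-12293367) and WRKY22 (AT4G01250) of group IIe lie downstream of the MAPK cascade of flagellin signalling. WRKY29 had 17.2, 26.3 and 14.8 CPM at 0 µM, 143.8, 119.0 and 224.9 CPM at 1 µM, 180.3, 111.6 and 148.8 CPM at 10 µM, and 144.5, 148.1 and 173.1 CPM at 100 µM. Like WRKY6, it reached its full level at 1 µM, with changes of 3.10 ± 0.27, 2.95 ± 0.27 and 3.03 ± 0.27 at 1, 10 and 100 µM (edgeR adjusted p = 6.65e-09, 6.2e-09 and 4.16e-09). WRKY22 was called only at 10 and 100 µM, by 4.07 ± 0.48 and 3.97 ± 0.50 (edgeR adjusted p = 3.82e-07 and 8.21e-07). At 100 µM the change of WRKY22 was 3.37 when replicate 1 of 0 µM was left out. When replicate 3 of 0 µM was left out, it was 4.60 at 100 µM and 4.74 at 10 µM.

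WRKY65 (AT1G29280, chr1:10236337-10237990), also of group IIe, went the other way. It had 83.6, 102.8 and 89.4 CPM at 0 µM, 146.3, 124.3 and 178.2 CPM at 1 µM, 38.5, 36.0 and 30.0 CPM at 10 µM, and 38.9, 33.8 and 34.5 CPM at 100 µM. It was above the untreated libraries at 1 µM and below them at 10 and 100 µM. The log2 change was −1.36 ± 0.19 at 100 µM and −1.39 ± 0.19 at 10 µM (edgeR adjusted p = 4.12e-06 and 2.15e-06), while that of 0.71 ± 0.17 at 1 µM stayed under 2-fold (edgeR adjusted p = 0.00437). Between 10 and 1 µM it fell by 2.1 ± 0.18 on the log2 scale (edgeR adjusted p = 2.17e-08), where 4.98% of all genes were called lower. With scaling to reference genes the change at 100 µM was −0.83 and no longer 2-fold.

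Calls were fewer among the other members of the group. WRKY14 (AT1G30650) was called lower at 10 than at 1 µM (−1.15 ± 0.33, edgeR adjusted p = 0.0117), and its difference at 100 against 0 µM was −0.35 ± 0.35, which was 0.18 with scaling to reference genes and −1.40, called lower, with total counts. WRKY35 (AT2G34830) was called at 100 µM alone (1.37 ± 0.51, edgeR adjusted p = 0.0309), a call that was lost with DESeq2, with scaling by total counts (0.34) and without 100 µM replicate 1 (0.96), 100 µM replicate 2 (1.35) or any of the 0 µM libraries (1.28, 1.38 and 1.44). WRKY69 (AT3G58710) was above the untreated libraries in all 100 µM libraries, with a difference of 0.89 ± 0.25 that stayed under 2-fold (edgeR adjusted p = 0.00537) but was 1.13 without 0 µM replicate 2, 1.42 with reference genes and −0.16 with total counts.

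In group I 4 of the 11 measured members (36.4%) were called higher at 100 µM, WRKY33 and 3 others, and 1 (9.09%) lower. Of all genes 23.8% were called higher and 14.9% lower. WRKY25 (AT2G30250), which acts in heat tolerance, had 1 count without CHX and 35, 65 and 9 counts with 1, 10 and 100 µM. It entered the table only through treated libraries. The ratios were 29.1 at 1 µM (4.90 to 1180), 54.6 at 10 µM (9.46 to 2190) and 12.7 at 100 µM (1.76 to 556), and without 0 µM replicate 3 it was at least 6.60-fold, 12.4-fold and 2.87-fold higher at these doses. WRKY25 was the only member called lower at 100 than at 10 µM, by −2.06 ± 0.49 (edgeR adjusted p = 0.0109), a call absent with DESeq2 and without 100 µM replicate 2. WRKY26 (AT5G07100), its partner in heat tolerance, was called at 10 and 100 µM, by 2.16 ± 0.32 and 2.29 ± 0.33 (edgeR adjusted p = 9.95e-06 and 6.22e-06). WRKY58 (AT3G01080) was called at all doses, by 1.93 ± 0.33 at 1 µM, 1.30 ± 0.35 at 10 µM and 2.04 ± 0.35 at 100 µM (edgeR adjusted p = 0.000131, 0.00409 and 4.56e-05), and lost its calls at 10 and 100 µM with scaling by total counts (0.45 and 0.99).

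WRKY3 (AT2G03340, chr2:1014350-1017222), which acts with WRKY4 (AT1G13960) in resistance to necrotrophic fungi, was lower at 100 µM. It had 22.2, 13.2 and 23.3 CPM at 0 µM, 24.2, 19.3 and 9.34 CPM at 1 µM, 10.6, 12.6 and 8.83 CPM at 10 µM, and 7.15, 11.1 and 7.60 CPM at 100 µM. All 10 and 100 µM libraries lay below all untreated ones. The log2 change was −1.18 ± 0.35 at 100 µM (edgeR adjusted p = 0.00809), and it was −0.65 with scaling to reference genes (edgeR adjusted p = 0.136). WRKY4 differed by −0.65 ± 0.22 at 100 µM, under 2-fold (edgeR adjusted p = 0.0184), and by −1.71 with scaling by total counts or −0.13 with reference genes.

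With TMM scaling the remaining group I members stayed under 2-fold at every dose. WRKY2 (AT5G56270), which acts in pollen development and seed germination and was the only 1 of 6 developmental members measured, differed by 0.89 ± 0.23 at 100 µM (edgeR adjusted p = 0.00271), and by 1.06 without 0 µM replicate 3 or 1.03 without 100 µM replicate 1. WRKY20 (AT4G26640) differed by 0.73 ± 0.21 (edgeR adjusted p = 0.00692), WRKY19 (AT4G12020) by 0.71 ± 0.39 (edgeR adjusted p = 0.137), WRKY32 (AT4G30935) by 0.57 ± 0.24 (edgeR adjusted p = 0.0526) and WRKY1 (AT2G04880) by 0.25 ± 0.28 (edgeR adjusted p = 0.489). The signs of all 5 turned negative with scaling by total counts, and with reference genes WRKY2 (1.42), WRKY20 (1.26), WRKY19 (1.23) and WRKY32 (1.09) were called higher.

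Counted over doses, 23 of 45 members were called higher at 1, 10 and 100 µM against 0 µM, 18 of them stress-induced. A further 5 were called at 10 and 100 µM but not at 1 µM, namely WRKY22, WRKY26, WRKY38, WRKY41 and WRKY70. Between 10 and 1 µM 16 members were called higher and 2 lower, against 12.2% and 4.98% of all genes. Of these 14 and 0 were stress-induced, with no stress-induced member lower by DESeq2 or at an unadjusted p under 0.05 either. Among the 23 stress-induced members the mean was highest at 1 µM in 2, at 10 µM in 13 and at 100 µM in 8. Among the 21 members of neither the stress-induced nor the developmental class it was highest at 0 µM in 2, at 1 µM in 6, at 10 µM in 2 and at 100 µM in 11. Shares of all genes were not computed for calls combined over doses or for the dose of the highest mean. The counts of these patterns therefore describe the members alone, and whether they are particular to the family was not tested. Over the whole family the median difference between 100 and 10 µM was 0.08.

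Genes that act with WRKY factors were listed by background knowledge. Of 9 measured genes of the MAPK cascade, which phosphorylates several WRKY proteins, 7 were called higher at 100 µM, against 23.8% of all genes, with a median log2 change of 3.56 (3.30 with bounds). MPK3 changed by 5.20 ± 0.25, the kinase kinases MKK9 and MKK4 by 4.43 ± 0.22 and 3.56 ± 0.22, and MEKK1 by 3.76 ± 0.21 (edgeR adjusted p = 2.15e-13, 2.28e-13, 1.11e-11 and 1.39e-12). MPK6, the close relative of MPK3, differed by −0.26 ± 0.32 (edgeR adjusted p = 0.53).

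VQ proteins bind WRKY domains and modify their activity. Of 8 measured VQ genes 6 were called higher at 100 µM, against 23.8% of all genes, with a median of 2.94. SIB1 and MKS1, which bind WRKY33, changed by 6.09 ± 0.27 and 5.35 ± 0.25, JAV1 by 3.93 ± 0.23 and VQ10 by 4.51 ± 0.25 (edgeR adjusted p = 4.84e-14, 9.94e-14, 3.29e-12 and 1.31e-12).

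Of 15 measured genes known as targets of WRKY factors, 5 (33.3%) were called higher and 2 (13.3%) lower at 100 µM. This was near the 23.8% and 14.9% of all genes, and the median log2 change was 0.86. At 10 µM 8 (53.3%) were called higher and 2 (13.3%) lower, against 22.4% and 12.1% of all genes. The median there was 1.66 (1.33 with bounds). At 1 µM 5 (33.3%) were called higher and 1 (6.67%) lower, against 13.5% and 3.12% of all genes. ERF109, a factor of redox and wound responses, changed by 9.40 ± 0.30 at 100 µM (edgeR adjusted p = 1.52e-15). SID2, the salicylic acid synthesis gene, changed by 4.89 ± 0.36 and NPR1, the salicylic acid receptor, by 3.18 ± 0.26 at that dose (edgeR adjusted p = 2.18e-10 and 1.3e-09). PBS3, which conjugates a precursor of salicylic acid, had 105 counts at 100 µM and 3 at 0 µM, a ratio of 49.3 (16.4 to 243). Lower at 100 µM were the phosphate exporter gene PHO1, a target that WRKY6 represses (−2.63 ± 0.36, edgeR adjusted p = 2.86e-06), and the phosphate uptake gene PHT1;1, a target of WRKY45 (−1.22 ± 0.21, edgeR adjusted p = 3.7e-05). PAD3, a camalexin synthesis gene targeted by WRKY33, was called at 1 µM (2.87 ± 0.39, edgeR adjusted p = 5.66e-06) and 10 µM (2.25 ± 0.39, edgeR adjusted p = 5.4e-05) but not at 100 µM (0.86 ± 0.41, edgeR adjusted p = 0.0851). Its 0 µM libraries were spread widely, from 3.76 to 44.7 CPM. CYP71A13, another camalexin synthesis gene of the list, was not called at any dose. Its log2 differences at 1, 10 and 100 µM were 0.17, −0.404 and −0.988 (edgeR adjusted p = 0.872, 0.629 and 0.264). The 0 µM libraries of CYP71A13 ranged from 0 to 26.4 CPM.

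**Figure D5:**
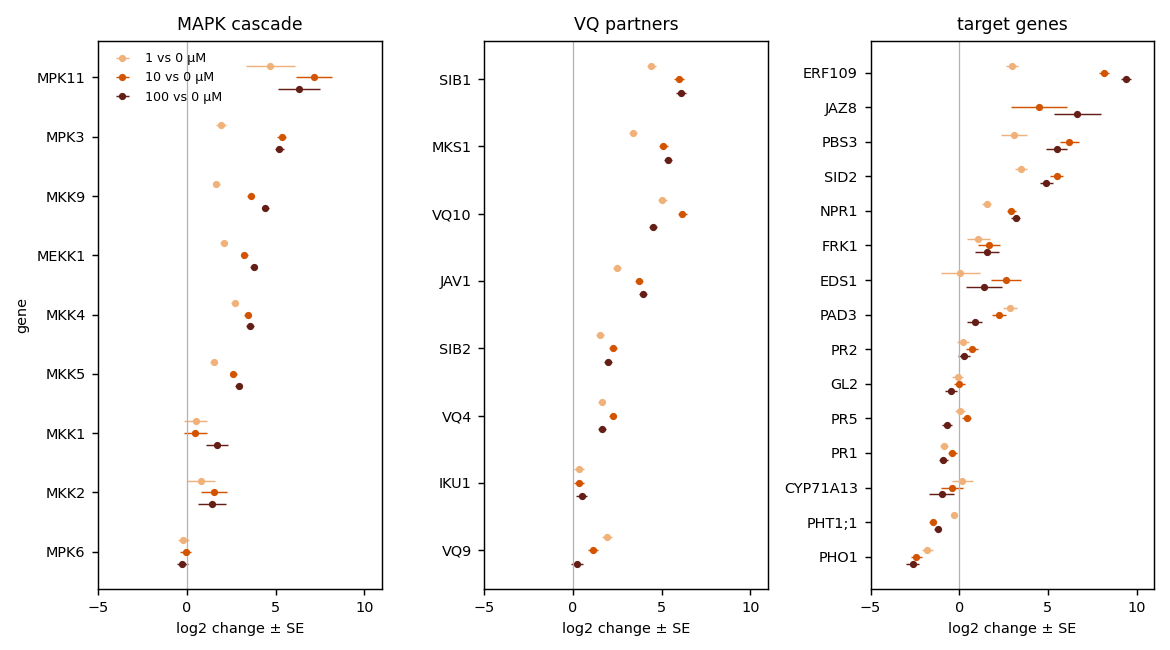
Log2 changes ± SE (edgeR) of the measured genes of the MAPK cascade, the VQ partners and the target genes at 1, 10 and 100 µM against 0 µM CHX, each row 1 gene. MPK3 (5.20), SIB1 (6.09) and ERF109 (9.40) were high at 100 µM, while PHO1 (−2.63) was low; MPK11 and JAZ8 had 0 counts at 0 µM, so their points are fitted values and no bounds, and JAZ8 has no point at 1 µM, where it also had 0 counts.

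Library totals spanned 1073063 to 2036594 counts without CHX, 2317260 to 2564533 counts with 1 µM, 2823964 to 3724564 counts with 10 µM and 1641387 to 2836374 counts with 100 µM. All 5 shoot and all 6 root markers were measured, and of 5 flower markers only AP1 was. From the lowest dose to the highest, the shoot markers summed to 13000 ± 661, 9539 ± 1390, 9298 ± 1080 and 7163 ± 290 CPM and the root markers to 58.7 ± 10.3, 67.0 ± 9.99, 27.3 ± 6.25 and 34.0 ± 2.19 CPM (SD, n = 3 each). Their part in the WRKY results was not tested, and in bulk seedlings fewer cells of a type and less RNA per cell cannot be told apart. The strand used in counting is not given in the sources used here, and 12 of 45 members overlap a gene on the opposite strand. Within these overlaps of 26 to 517 bases, reads of a member and of its partner cannot be told apart. The partner was in the table for WRKY1, WRKY33, WRKY40, WRKY41 and WRKY53. It averaged 16.5 CPM at 100 µM and 3.28 at 0 µM for WRKY33, 5.36 and 1.31 CPM for WRKY40, and 11.2 and 18.7 CPM for WRKY53. For WRKY41 it averaged 0.363 and 1.45 CPM at these doses, and for WRKY1 0.265 and 0.742 CPM.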

How the data were processed

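Whole Col-0 seedlings at 4 CHX doses gave 12 bulk MARS-seq libraries, 3 per dose, grouped by the dose in the labels, although the study's text ties the record to another experiment. Per the labels and methods the authors used bcl2fastq 2.17.1.14, cutadapt 1.8.3, STAR with Araport11, HTSeq and DESeq2, and kept genes with at least 5 reads in a sample. The deposited counts are whole reads per gene, taken to include PCR copies since the file is named as having no filter on molecular identifiers. The normalized signal deposited by the authors is the count divided by 1 factor per library, and the deposited log2 values were read as regularized log2 expression. Neither entered the tests. Columns of the authors' own comparisons were not used.

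Counts were fitted in edgeR 4.0.16 (R 4.3.3, TMM, quasi-likelihood, a mean per dose over all 12 libraries), with Benjamini-Hochberg adjustment. Bounds were computed at a floor of 3 counts summed over a group, and ratios with 1 to 3 counts carry exact 95% binomial intervals. The floor was 0.43, 0.358, 0.361 and 0.606 CPM at 0, 1, 10 and 100 µM. Values in every library are given for members with a mean of at least 100 CPM at a dose or called lower at 100 µM. Up to 4 genes of each related list were named by smallest adjusted p. MPK6, PHO1, PHT1;1, PAD3 and CYP71A13 were added after their values were seen. Alternatives were other scalings (RLE, total counts, 12 of 14 listed reference genes), filterByExpr, a replicate block, 2-dose models, DESeq2 1.42.0, other thresholds and each library left out. Members, classes and lists were chosen with earlier results of these data known. The procedure was tested on simulated data. Sequences came from the RefSeq TAIR10.1 genome and annotation, in which all 45 members were found.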

Additional observations from a re-analysis of the deposited data

How the results depend on the processing

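Scaling decided the calls of weak members. With total counts the median of all genes at 100 against 0 µM moved to −1.01, with 1846 genes called higher and 5634 lower, and with reference genes to 0.55, with 4133 and 810, against 3072 and 1927 with TMM. With total counts, members called lower were 5 at 100 µM (all among the other members), 5 at 10 µM (likewise) and 9 for 10 against 1 µM (likewise). Of the 12905 genes 4935 were then called lower at 10 µM and 2426 for 10 against 1 µM. Other members called higher were then 4 at 100 µM, 3 at 10 µM, 4 at 1 µM and 0 for 10 against 1 µM, and 0 members, stress-induced included, were called higher for 100 against 10 µM. All-gene counts called higher were 1879 at 10 µM and 1355 at 1 µM. They were 974 for 10 against 1 µM and 142 for 100 against 10 µM. Uncalled differences at 100 µM that turned negative were −0.79 (WRKY1), −0.16 (WRKY2), −0.89 (WRKY9), −0.34 (WRKY19), −0.32 (WRKY20), −0.49 (WRKY32), −0.41 (WRKY47), −0.70 (WRKY57) and −0.16 (WRKY69). With reference genes no member was called lower at 100 µM (0 of 45, and 0 of the other members), 13 other members were called higher at 100 µM and 4 at 1 µM, 1 was called lower for 10 against 1 µM, and for 100 against 10 µM 7 members were called higher, 5 stress-induced and 2 other. All-gene counts with reference genes were 1359 higher at 1 µM, 135 lower for 10 against 1 µM and 766 higher for 100 against 10 µM. WRKY14 turned to 0.18. This scaling used the summed counts of the 12 reference genes, of which UBQ10 and EF1A had the most (27942 and 13853 at 0 µM). With TMM, UBQ10 itself differed by −0.74 ± 0.19 at 100 µM (edgeR adjusted p = 0.00242). Of the 12 reference genes 3 (25%) were then called lower and 0 higher, against 14.9% and 23.8% of all genes. The cause of these shifts between scalings was not tested.

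Same-numbered replicates correlated between −0.185 and 0.3 in 18 pairs and differently numbered ones between −0.344 and 0.259 in 36. Most same-numbered pairs were positive and most differently numbered ones negative, but whether the numbers pair samples was not tested. The main fit did not pair samples, and a replicate block was an alternative. With a replicate block 2 members, both stress-induced, were called lower for 100 against 10 µM, where 376 of all genes were, and the block moved no other count of members by over 1.5 times. For the same comparison 1 stress-induced member was called higher with only the 2 doses fitted, and 0 were called lower with DESeq2. The all-gene counts were 233 higher with the 2 doses and 290 lower with DESeq2. Without a fold minimum, calls at 100 µM were 4 lower and 11 other members higher, 4 were lower at 10 µM and 6 for 10 against 1 µM, and for 100 against 10 µM 7 were higher (6 stress-induced and 1 other). All-gene counts were then 2749 lower and 3560 higher at 100 µM, and 2553 lower at 10 µM. They were 1562 lower for 10 against 1 µM and 631 higher for 100 against 10 µM. At an adjusted p under 0.01, 1 was lower for 10 against 1 µM, and for 100 against 10 µM 1 was higher and 0 lower. The all-gene counts there were 471 lower, and 191 higher and 207 lower.

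Leaving out single libraries, members called lower ranged from 1 to 3 at 10 µM (3 without 10 µM replicate 2) and from 2 to 4 for 10 against 1 µM (4 without 1 µM replicate 1), in each case other members. All-gene counts called lower were 1583 at 10 µM without 10 µM replicate 2, and 549 for 10 against 1 µM without 1 µM replicate 1. Other members called higher for 10 against 1 µM ranged from 1 to 2. For 100 against 10 µM, members called higher ranged from 0 to 3 (stress-induced 0 to 3, other 0 to 1), and members called lower from 0 to 3, all stress-induced, with 3 without 100 µM replicate 1 and 0 without 100 µM replicate 2. Without these 2 libraries 592 and 226 of all genes were called lower for 100 against 10 µM. The remaining counts of members stayed within 1.5 times. Depth limits members near the floor, where 3 counts over the 0 µM group equal 0.43 CPM.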
